A study of Mus musculus with 6 samples.

Results

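The genes described here are 10 imprinted growth regulators: Igf2, H19, Dlk1, Meg3, Peg3, Peg10, Grb10, Plagl1, Ndn and Zdbf2. They were listed by name, located by symbol in the GENCODE vM21 annotation of the mouse genome build mm10, and matched by position to transcripts assembled in each library. All 10 could be quantified among 30948 genes in all, and all 10 reached the mean of 1 FPKM that was required for testing, as did 12040 genes. FPKM is the number of sequenced fragments of a transcript, scaled to its length and to the size of the library.

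The libraries came from C57BL/6 mouse spinal cord at postnatal day 0.5. Oligodendrocyte precursor cells (OPCs), the dividing cells that give rise to myelin-forming oligodendrocytes, were enriched by magnetic pulldown for the A2B5 surface antigen. They were then kept for 16 h in a medium for dividing cells that held 5 µM forskolin and the growth factors CNTF and PDGF at 10 ng/mL each. The groups were Gde3 KO (3 libraries) and Gde3 WT (3 libraries), and both received the same culture. Gde3 is Gdpd2, which encodes a surface enzyme that cleaves glycosylphosphatidylinositol anchors. The knockout allele, the sex of the pups and the number of animals per library are not given in the sources used here. Nothing in the labels says that the replicates are separate litters, so each p-value measures only the spread between these libraries.

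An imprinted gene is transcribed mainly from the chromosome inherited from 1 parent, under the control of DNA methylation laid down in the germ line. Many imprinted genes set fetal growth: paternally expressed genes such as Igf2 tend to promote it, and maternally expressed genes such as Grb10 and H19 tend to restrain it. Several lie in shared clusters, in which a coding gene and a long noncoding RNA are expressed from opposite parental chromosomes. H19 and Igf2 form such a pair on chromosome 7, 72.6 kb apart, and Dlk1 and Meg3 form another on chromosome 12, 77.7 kb apart. The mice were of 1 inbred strain, so the parental alleles could not be told apart and only the total level of each gene is reported.

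The sequences below are those that the results turn on. The first pair are the mature products of miR-675, whose hairpin (chr7:142577064-142577147, minus strand) lies in an exon of H19. The hairpin was covered in full by assembled H19 exons in all 6 libraries. Capitals mark the seed, bases 2 to 8, and the 2 arms do not share a seed. Sequences of miRNAs and promoters are from RefSeq (GRCm38.p6, the mm10 assembly).

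miR-675-5p: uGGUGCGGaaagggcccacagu
miR-675-3p: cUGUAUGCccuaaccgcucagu

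The next sequence is the segment of Dlk1 that was missing from the last exon of the transcripts in 4 of the 6 libraries (chr12:109459893-109460111, plus strand). It has 219 bases, which is 73 codons, and it lies within the coding sequence of the full-length transcript. Capitals mark the first and last pair of bases, which are those of a standard intron.

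Dlk1 removed segment: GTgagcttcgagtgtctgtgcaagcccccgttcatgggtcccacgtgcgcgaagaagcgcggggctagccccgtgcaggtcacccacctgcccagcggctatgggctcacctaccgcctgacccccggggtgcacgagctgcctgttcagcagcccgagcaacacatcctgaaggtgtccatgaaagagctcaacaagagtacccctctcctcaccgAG

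The third is the Peg10 site (chr6:4755297-4755363, plus strand) around a gap of 2 bases in the assembled transcripts. Peg10 derives from a retrotransposon and is known to be translated in overlapping reading frames by a -1 ribosomal frameshift at a slippery sequence. Capitals mark GGGAAAC, which occurs once in the last exon of Peg10.

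Peg10 frameshift site: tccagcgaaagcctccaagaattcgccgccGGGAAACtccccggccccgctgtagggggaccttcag

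The last 4 sequences are the 250 bases before annotated starts from which transcripts were assembled: the downstream start of Igf2 (chr7:142657497-142657746, minus strand), the upstream start of Grb10 (chr11:12037421-12037670, minus strand), the first start of Meg3 (chr12:109540746-109540995, plus strand) and the start of Plagl1 (chr10:13090582-13090831, plus strand). Capitals mark TGCCGC or its reverse complement GCGGCA, which the Igf2 and Grb10 windows do not hold. This is the core sequence that ZFP57, a zinc-finger protein known to keep methylation at imprinted loci, binds when it is methylated.

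Igf2 downstream start: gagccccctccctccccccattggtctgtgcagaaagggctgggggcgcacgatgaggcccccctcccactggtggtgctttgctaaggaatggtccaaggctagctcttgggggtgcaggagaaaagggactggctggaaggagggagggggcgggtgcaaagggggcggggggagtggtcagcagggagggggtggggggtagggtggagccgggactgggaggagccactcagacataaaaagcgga
Grb10 upstream start: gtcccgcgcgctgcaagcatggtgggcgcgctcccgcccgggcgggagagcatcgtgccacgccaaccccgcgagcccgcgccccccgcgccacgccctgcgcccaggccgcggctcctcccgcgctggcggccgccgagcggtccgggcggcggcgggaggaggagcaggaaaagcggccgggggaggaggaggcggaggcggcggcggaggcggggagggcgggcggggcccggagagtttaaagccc
Meg3 first start: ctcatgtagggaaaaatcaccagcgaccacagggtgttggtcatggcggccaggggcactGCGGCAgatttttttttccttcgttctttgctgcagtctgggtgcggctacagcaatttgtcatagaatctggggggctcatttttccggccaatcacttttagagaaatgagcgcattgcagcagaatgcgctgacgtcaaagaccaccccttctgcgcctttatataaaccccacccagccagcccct
Plagl1 start: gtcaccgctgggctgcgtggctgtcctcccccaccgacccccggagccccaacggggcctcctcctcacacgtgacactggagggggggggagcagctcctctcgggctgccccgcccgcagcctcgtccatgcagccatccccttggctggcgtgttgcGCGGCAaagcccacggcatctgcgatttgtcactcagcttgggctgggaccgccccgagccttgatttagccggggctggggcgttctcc

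RefSeq entries were found for 14 starts of 8 of the genes, all but H19 and Peg10. TGCCGC occurred on either strand in 3 of the 14 windows: 1 match each at the first start of Meg3 and the start of Plagl1, and 3 matches at a distal start of Zdbf2 from which no transcript was assembled. Over all 32851 promoter windows of the same length, 8.68% held it. A match is only a run of letters in this window, and no methylation was measured. The Grb10 window had 40 CG pairs and 81.2% G or C, against medians of 6 pairs and 52.4% over all windows.

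The deposited assemblies hold no read counts, so the absolute depth is unknown. From the ratio of coverage to FPKM, the relative depth of the libraries ranged from 0.759 to 1 of the deepest. WT replicate 1 was the shallowest and the most fragmented, with 56807 assembled transcripts of which 36.8% were under 300 nt, against 2.16% to 6.61% in the other 5. The replicate 1 libraries stood apart from the other 4 on the first principal component, which took 36.9% of the variance. Their sample identifiers also carry a different middle number (3) from the other 4 libraries (4). The identifiers do not say what this number is. The targeted gene separated the labelled genotypes by its exons, not by its level. Of 16 Gdpd2 exons, exons 9 and 10 were assembled in whole or in part in all 3 WT libraries and in none of the 3 KO libraries. Over the whole of Gdpd2 the values were 0.667, 1.497 and 1.78 FPKM in KO and 0, 2.79 and 2.85 FPKM in WT, where WT replicate 1 held only a short fragment. All 12 OPC markers looked for, among them Pdgfra, Sox10 and Olig2, averaged at least 1 FPKM. Their sum ranged from 1190 to 1490 FPKM in KO and from 1073 to 1625 FPKM in WT.

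The 10 genes covered a wide range of levels in neonatal OPC cultures, and none separated the genotypes. H19 was by far the highest at a mean of 281.7 FPKM over the 6 libraries (SD 80.4), rank 138 of the 12040 tested genes. Ndn (49.7 ± 5.83, SD, n = 6), Grb10 (37.2 ± 3.43), Peg3 (24.8 ± 4.36) and Peg10 (24.7 ± 9.12) followed. These are averages over all annotated unshared bases, and the order depends on that choice: over assembled bases only, Ndn ranged from 96.3 to 129 FPKM and Peg10 from 48.0 to 57.1 FPKM, which was above Grb10 at 33.7 to 43.8 FPKM. Over all unshared bases, Dlk1 (8.02 ± 4.63), Meg3 (4.12 ± 3.02), Plagl1 (3.18 ± 0.830), Igf2 (2.90 ± 1.58) and Zdbf2 (1.86 ± 0.355) were all under 10 FPKM. On this value Peg3 and Peg10 did not differ beyond their spread, nor did Meg3, Plagl1 and Igf2. For Igf2 the value rests on 1555 of 5249 exonic bases. Over all of them, shared ones included, Igf2 ranged from 6.84 to 12.04 FPKM.

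**Figure D1:**
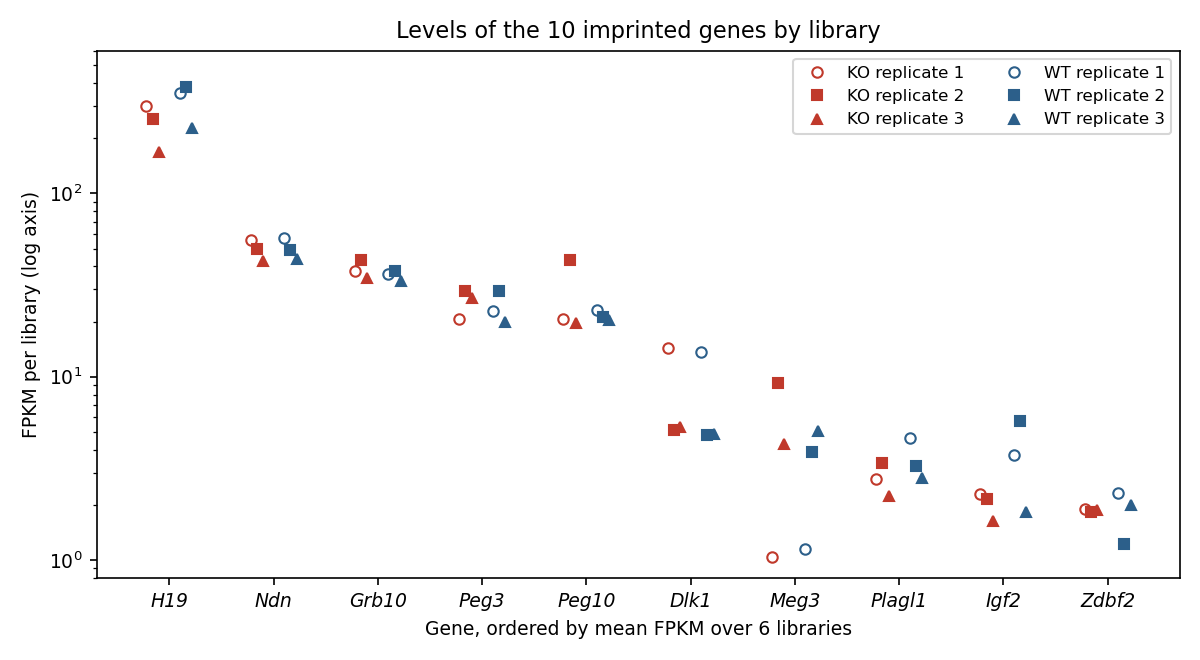
FPKM of each gene in each library on a log axis, genes ordered by their mean, KO in red and WT in blue, with open circles for the replicate 1 libraries. H19 lies between 168 and 382 FPKM, the open circles of Dlk1 lie above and those of Meg3 below the other libraries, and KO and WT points overlap for every gene.

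The first question was whether loss of Gde3 changed these genes. Of the 10, 0 passed the limma test at a Benjamini-Hochberg adjusted p under 0.05, and the test called 1 of all 12040 genes (0.00831%). That gene was Mettl23, listed at 0 in all 3 KO libraries and at 6.25, 9.11 and 8.60 FPKM in WT. The count of called genes was 17 without KO replicate 1, 3 without KO replicate 3 or WT replicate 1, and 2 without KO replicate 2 or WT replicate 2, and none of these included an imprinted gene of the list. None of the 10 had an unadjusted limma p under 0.05, which 1.62% of all tested genes had. KO and WT libraries overlapped for all 10, while they did not overlap for 5.07% of all tested genes (2.03% with all KO libraries above and 3.03% with all below). Of the 10, 6 were higher and 4 lower in KO by their mean log2 value. Their median difference was 0.06 on the log2(FPKM + 1) scale, beside -0.0055 over all tested genes.

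**Figure D2:**
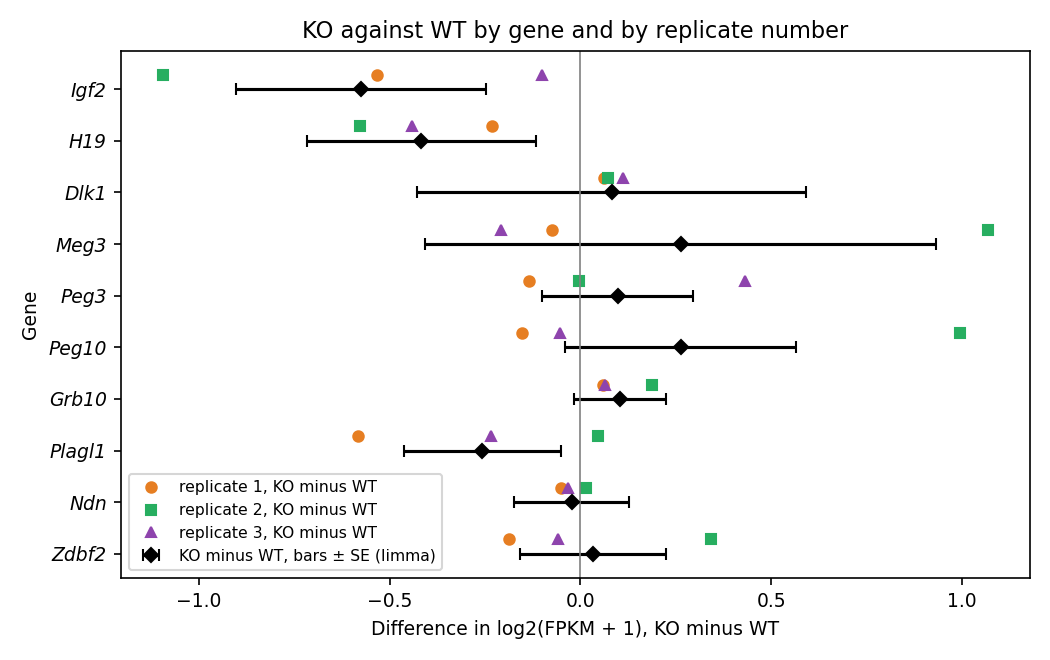
Difference in log2(FPKM + 1) between KO and WT for each gene, with black diamonds and bars for the limma estimate ± SE and coloured points for KO minus WT at each replicate number. The 3 points of Igf2 and of H19 lie below 0 and those of Dlk1 and Grb10 above 0, while Meg3 and Peg10 each have 1 point, replicate 2, far to the right.

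Since libraries with the same replicate number deviated together, the differences were also read within each number. By the averages over all unshared bases, Igf2 and H19 were lower in KO at all 3 numbers, and Dlk1 and Grb10 were higher at all 3. The remaining 6 genes were mixed. Over all tested genes, 15.8% were lower in KO at all 3 numbers and 13.6% were higher, so 2 of 10 in each direction is near the background.

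Among the secreted and surface ligands, Igf2 (ENSMUSG00000048583.16, chr7:142650766-142666816, minus strand) encodes insulin-like growth factor 2, a fetal growth factor. Other annotated genes, mainly a read-through gene, share all but 1555 of its 5249 exonic bases of the annotation, and the main value rests on the 1555 alone. On these bases the KO libraries had 2.29, 2.16 and 1.64 FPKM and the WT libraries 3.76, 5.75 and 1.82 FPKM. WT replicates 1 and 2 were the highest, and WT replicate 3 lay within the KO range. The difference was -0.58 ± 0.33 (SE) on the log2(FPKM + 1) scale, with a limma p of 0.129 and an adjusted p of 0.9999. Over all exonic bases, shared ones included, the values were 12.04, 6.84 and 8.25 in KO and 8.09, 9.44 and 7.77 in WT. There the direction turned and the difference was 0.06. Summed over transcripts the values were 16.6, 9.07 and 11.4 FPKM in KO and 29.7, 16.05 and 10.6 FPKM in WT, a difference of -0.49. The median of all tested genes in that summary was -0.25. The direction for Igf2 thus depends on the summary used. On the unshared bases the difference was -0.28 without WT replicate 2 and -0.91 without WT replicate 3, and neither passed the test.

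The assembly showed from which starts Igf2 was transcribed. In all 6 libraries 1 multi-exon transcript began at the downstream start printed above, within 28 nt of the RefSeq position 142657496, and another began at a middle start. Transcripts from the downstream start were at 14.4, 6.43 and 9.77 FPKM in KO and 10.3, 8.28 and 8.66 FPKM in WT. Those from the middle start, near the annotated start at 142659489, were at 2.17, 2.64 and 1.58 FPKM in KO and 6.68, 7.77 and 1.92 FPKM in WT. In each library the value on the unshared bases lay nearer to the middle start than to the downstream start. The main test therefore does not stand for all Igf2 transcripts. The downstream start thus gave 86.9%, 70.9% and 86.1% of the FPKM of multi-exon Igf2 transcripts in KO, and 60.6%, 51.6% and 81.9% in WT. The groups overlapped, since WT replicate 3 lay between KO replicates 2 and 3. The middle transcript of WT replicate 1 and the downstream transcripts of WT replicates 1 and 2 ended short of the annotated 3′ end. No transcript was assembled from the 2 upstream RefSeq starts in any library. The hairpin of miR-483, which lies in an Igf2 intron, was not covered in any of the 6.

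Dlk1 (ENSMUSG00000040856.17, chr12:109452823-109463336, plus strand) encodes a transmembrane protein of the Notch ligand type whose outer part can be shed. It was at 14.3, 5.12 and 5.33 FPKM in KO and at 13.7, 4.82 and 4.86 FPKM in WT. On this value, averaged over all unshared bases, the replicate 1 library was the high one in each genotype. At every replicate number KO and WT were close. The differences within numbers were 0.06, 0.07 and 0.11 (log2), and the pooled difference was 0.08 ± 0.51 (SE), with a limma p of 0.877.

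The last exon of Dlk1 was assembled in different forms. In KO replicate 1 and WT replicate 1 most of the FPKM came from a transcript with the whole exon: 44.2 of 55.1 FPKM and 38.6 of 46.7 FPKM. The rest lacked the 219-base segment printed above, whose removal is known to take out the region where the protein is shed. In WT replicate 3 only the whole form was assembled, at 19.3 FPKM. In WT replicate 2 only the shortened form was assembled, at 21.2 FPKM. In KO replicate 3 it was at 20.1 of 27.3 FPKM, and the remainder ended before the segment. KO replicate 2 had 22.7 FPKM in 4 transcripts, each with another segment of 150, 153, 225 or 279 bases missing from the same exon. All 5 segments are annotated introns. The share of the shortened forms among those that reached the segment was 19.7%, 100% and 100% in KO and 17.5%, 100% and 0% in WT. The genotypes overlapped, and the assembler reports the structures it judged most likely, so a share of 0% or 100% does not show that the other form was absent.

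**Figure D3:**
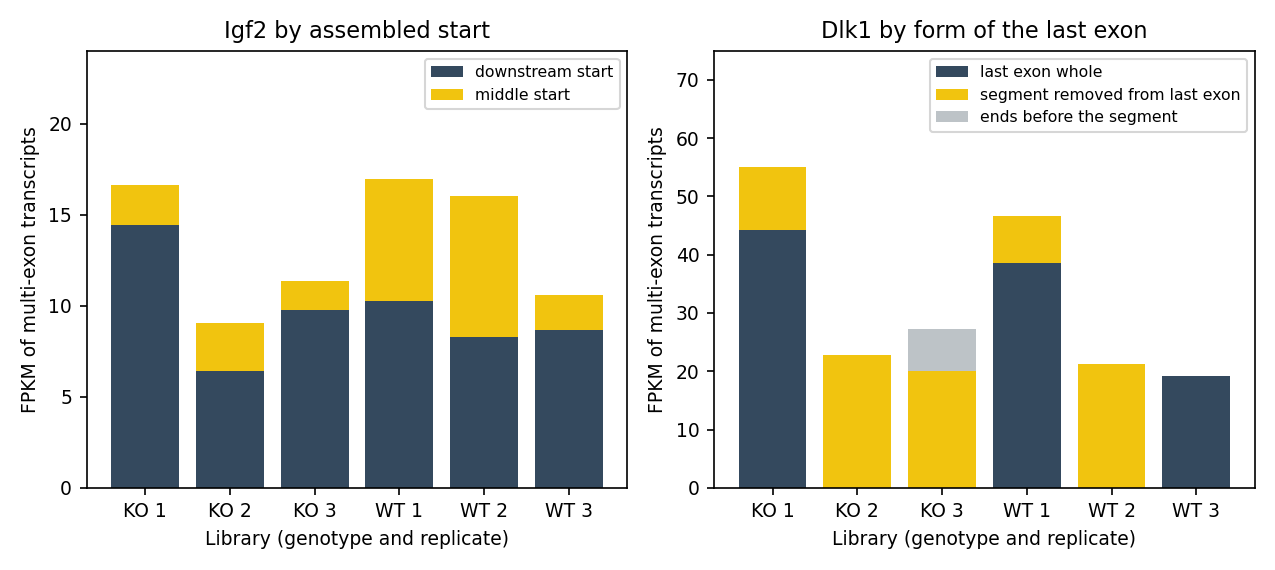
FPKM of multi-exon transcripts in each library, stacked by assembled start for Igf2 (left) and by the form of the last exon for Dlk1 (right). The Igf2 bars are tallest for KO 1, WT 1 and WT 2, and the Dlk1 bars of the replicate 1 libraries, 55.1 and 46.7 FPKM, are the only ones above 30 and are mostly of the whole form.

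Grb10 (ENSMUSG00000020176.17, chr11:11930508-12038683, minus strand) encodes an adaptor that binds the insulin and IGF1 receptors and restrains their signal. It was the steadiest of the 10, with 37.9, 43.2 and 34.8 FPKM in KO and 36.3, 37.8 and 33.2 FPKM in WT, a coefficient of variation of 9.22% over the 6 libraries. The difference was 0.10 ± 0.12 (SE, log2), with a limma p of 0.424. Grb10 is known to be expressed from the maternal chromosome by its upstream start in most tissues, and from the paternal chromosome by inner starts in neurons. The upstream start was assembled in all 6 libraries, at most 28 nt from the RefSeq position 12037420. Among transcripts of at least 300 nt, 1 from an inner start was assembled only in KO replicate 2 (6.99 of 44.1 FPKM, 15.8%) and WT replicate 2 (7.45 of 38.6 FPKM, 19.3%). It began 68 to 74 nt from an annotated start. The sum of 14 neuron and neuroblast markers was 562, 518 and 466 FPKM in KO and 752, 538 and 532 FPKM in WT, and its part in the inner-start transcripts was not tested.

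The noncoding RNAs came next. H19 (ENSMUSG00000000031.16, chr7:142575529-142578143, minus strand) is a maternally expressed RNA that restrains growth and carries miR-675. It was at 302, 256 and 168 FPKM in KO and at 354, 382 and 228 FPKM in WT. The KO library was the lower at each replicate number, with differences of -0.23, -0.58 and -0.44 on the log2 scale, but WT replicate 3 lay below 2 KO libraries. The difference was -0.42 ± 0.30 (SE), with a limma p of 0.212 and an adjusted p of 0.9999. With the replicate number as a block, the limma p was 0.0200 and the adjusted p 0.809, so the call did not change. H19 was the only member of the group with an unadjusted p under 0.05 in that fit, beside 4.24% of all tested genes. Over assembled bases only, the values were 305, 306 and 224 FPKM in KO and 361, 388 and 306 FPKM in WT, again lower in KO at each number. Summed over transcripts, they were 305, 423 and 318 FPKM in KO and 361, 388 and 443 FPKM in WT, which was higher in KO at number 2, with a difference of -0.20. In that summary the median difference of all tested genes was -0.25, so H19 was not low beside other genes there. All 4 annotated junctions of H19 were assembled in all 6 libraries. In KO replicates 2 and 3 and WT replicate 3 the assembly had 2 overlapping transcripts that ended short of the annotated end, and it covered 74.5% to 83.5% of the gene's unshared bases, against 98.1% to 98.9% in the others.

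Igf2 is known to be strongly expressed in the meninges, so markers of their fibroblasts were read beside H19 and Igf2. The sum of 13 meningeal and fibroblast markers was 76.2, 71.4 and 159 FPKM in KO and 75.8, 120.4 and 123.5 FPKM in WT. None of the 13 was at 0 in all libraries, and the part of these cells in the levels of H19 and Igf2 was not tested. In bulk RNA, fewer cells of a type and less RNA per cell cannot be told apart. Of 10 tested microglia markers, 10 were higher in KO, beside 5854 of all 12040 tested genes. The unadjusted limma p was under 0.05 for 5 of these markers, beside 1.62% of all tested genes. The adjusted p was under 0.05 for 0 of the 10. The summed level of the microglia markers, with 12 listed and 2 under the minimum for testing, was 179 to 307 FPKM in KO and 103 to 155 FPKM in WT. The part of microglia in the values of the 10 genes was not tested.

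Meg3 (ENSMUSG00000021268.17, chr12:109541001-109571726, plus strand) is a maternally expressed RNA that shares its imprinted cluster with Dlk1. It varied most of the 10, with 1.04, 9.25 and 4.27 FPKM in KO and 1.15, 3.89 and 5.09 FPKM in WT. Both replicate 1 libraries were low, and KO replicate 2 was the highest. The difference was 0.26 ± 0.67 (SE, log2), with a limma p of 0.708, and it was -0.28 without KO replicate 2 and -0.18 without WT replicate 1. The RNA was assembled in 2 to 12 pieces of 300 nt or more, with 3 to 10 of its 13 annotated junctions. Multi-exon transcripts began near the first start printed above in the 3 KO libraries and in WT replicate 2. WT replicates 1 and 3 had the fewest junctions, 3 and 4, so the first start is not shown to be unused there. The hairpin of miR-770 was covered by assembled exons over 93.6% of its length in WT replicate 1 and over 100% in the other 5.

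The second pattern was that of the replicate 1 libraries. Dlk1 averaged 14.0 FPKM in the replicate 1 libraries and 5.03 FPKM in the other 4, a fold of 2.78 that 1.22% of tested genes reached. Meg3 averaged 1.10 and 5.63 FPKM, 5.13-fold lower in replicate 1, and 1.13% of tested genes were as low or lower. The 2 neighbours of the cluster therefore stood at opposite ends of this split. Both replicate 1 libraries lay above the other 4 for Dlk1 and Ndn, as for 18.7% of all tested genes. Both lay below them for Meg3, as for 21.3%. Over assembled bases only, Meg3 was also lowest in replicate 1, at 1.56 and 2.22 FPKM against 5.10 to 13.7 FPKM in the others. When the FPKM of all its pieces were summed, replicate 1 (13.9 and 35.0 FPKM) lay within the range of the others (5.34 to 120.0 FPKM). Rian, the next noncoding RNA of the cluster, chosen after its values were seen, was at 7.87, 12.3 and 6.80 FPKM in KO and 14.6, 9.69 and 7.60 FPKM in WT, with no low level in replicate 1. Marker sums also moved with this split: neuron and neuroblast markers were at 657 FPKM in replicate 1 and 514 FPKM in the others, and astrocyte and radial glia markers at 1249 and 1755 FPKM. The summed OPC markers were at 1557 and 1263 FPKM. For 2 of these sums KO replicate 1 was close to WT replicate 2. The neuron sum was 562 FPKM in KO replicate 1 and 752 in WT replicate 1, beside 538 in WT replicate 2. The OPC sum was 1490 and 1625 FPKM, beside 1483. The part of these cells, of depth and of fragmentation in the split was not tested.

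**Figure D4:**
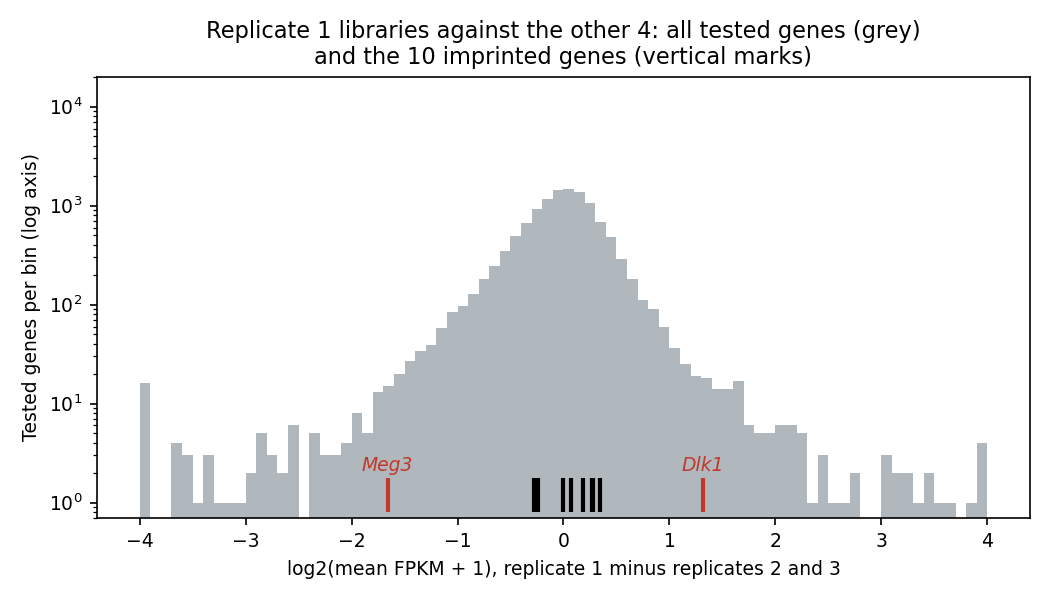
Histogram over the 12040 tested genes of the log2(mean FPKM + 1) difference between the 2 replicate 1 libraries and the other 4, with counts on a log axis and differences beyond 4 drawn at 4. Vertical marks show the 10 imprinted genes: Dlk1 lies in the right tail, Meg3 in the left tail, and the other 8 near 0.

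Genes with the most similar profiles over the 6 libraries were found by the root mean square difference of mean-centred log2(FPKM + 1) values. For Dlk1 they were Liph (0.06), Lgals1 (0.14) and Msantd3 (0.15). Liph was at 4.22, 1.14 and 1.08 FPKM in KO and 4.43, 1.02 and 1.15 FPKM in WT. For Meg3 they were the noncoding RNA Firre (0.16), Pnisr (0.18) and Sulf1 (0.20). Firre was at 0.565, 6.22 and 3.85 FPKM in KO and 0.560, 2.49 and 2.84 FPKM in WT.

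Of the zinc-finger genes, Peg3 (ENSMUSG00000002265.16, chr7:6703892-6730431, minus strand) encodes a paternally expressed DNA-binding protein. It was at 20.6, 29.4 and 27.03 FPKM in KO and at 22.7, 29.5 and 19.8 FPKM in WT. The replicate 2 libraries were the highest in both genotypes. The difference was 0.10 ± 0.20 (SE, log2), with a limma p of 0.640. Its start was assembled within 7 nt of the RefSeq position 6730419 in all 6 libraries, with all 8 annotated junctions in 5 of them and 7 in WT replicate 3. In WT replicate 3 only a 2-exon piece began there, at 1.66 of 22.1 FPKM. The main transcript of that library, at 20.4 FPKM, began at 6722526, 689 nt from the nearest annotated start.

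Plagl1 (ENSMUSG00000019817.18, chr10:13060504-13131694, plus strand) encodes a zinc-finger factor that slows the cell cycle and acts on other imprinted genes. It was at 2.77, 3.39 and 2.23 FPKM in KO and at 4.66, 3.25 and 2.80 FPKM in WT. WT replicate 1 was the highest, and KO replicate 2 lay above the other 2 WT libraries. The difference was -0.26 ± 0.21 (SE, log2), with a limma p of 0.257. No transcript was assembled from its distal annotated start.

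Zdbf2 (ENSMUSG00000027520.15, chr1:63273265-63314576, plus strand) encodes a zinc-finger protein that affects growth after birth. It was at 1.91, 1.82 and 1.88 FPKM in KO and at 2.31, 1.23 and 2.00 FPKM in WT. The KO values lay inside the WT range, and the difference was 0.03 ± 0.19 (SE, log2), with a limma p of 0.873. Multi-exon transcripts from its main start were assembled in the 3 KO libraries and WT replicate 3, and in none of WT replicates 1 and 2. At this level the assembly covered 57.4% to 97.7% of its bases, and a start that was not assembled is not shown to be unused.

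Peg10 (ENSMUSG00000092035.8, chr6:4747306-4760517, plus strand) is needed for placental growth. It was at 20.7, 43.1 and 19.5 FPKM in KO and at 23.2, 21.1 and 20.3 FPKM in WT. KO replicate 2 was high and the other 5 lay close together. In KO replicate 2 the assembly covered 83.1% of the annotated bases, against 40.3% to 40.8% in the other 5. Over assembled bases only, the values were 51.2, 51.9 and 48.0 FPKM in KO and 57.1, 52.4 and 49.8 FPKM in WT, and KO replicate 2 was no longer high. The difference was 0.26 ± 0.30 (SE, log2) over all bases, with a limma p of 0.419, and -0.07 over assembled bases.

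The 2-base gap in Peg10 (chr6:4755331-4755332) took out bases 5 and 6 of GGGAAAC. Every Peg10 transcript held it in KO replicates 1 and 3 and WT replicates 2 and 3, and none did in KO replicate 2 and WT replicate 1. An annotated Peg10 transcript holds the same gap. The RNA was not measured at single bases here, so whether these 2 bases are missing from the RNA was not tested.

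**Figure D5:**
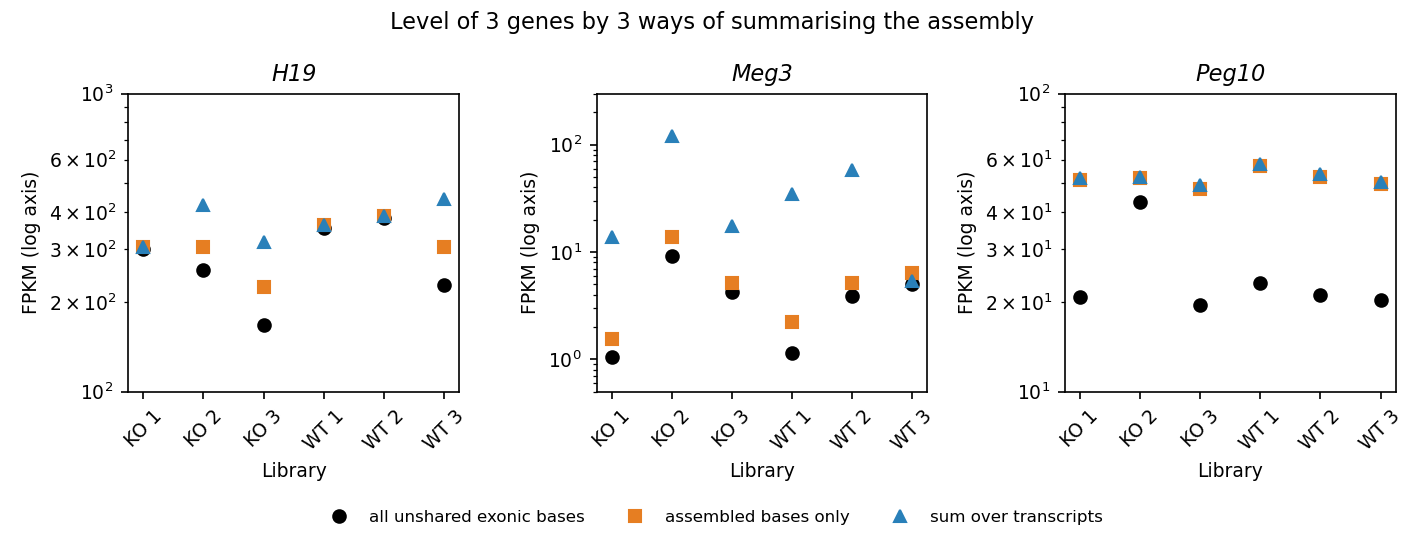
FPKM of H19, Meg3 and Peg10 in each library on log axes, summarised over all unshared exonic bases (black), over assembled bases only (orange) and as a sum over transcripts (blue). For Peg10 the black point of KO 2 (43.1 FPKM) stands above the other black points (19.5 to 23.2 FPKM), while the orange points lie between 48.0 and 57.1 FPKM.

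Ndn (ENSMUSG00000033585.5, chr7:62346569-62350262, plus strand) encodes necdin, a protein of the MAGE family that restrains division and is abundant in postmitotic neurons. It was at 55.4, 49.5 and 43.0 FPKM in KO and at 57.4, 49.0 and 44.0 FPKM in WT. Libraries with the same replicate number were close, and the difference was -0.02 ± 0.15 (SE, log2), with a limma p of 0.887. In all 6 libraries Ndn was 1 unspliced transcript that began within 9 nt of the RefSeq start at 62348277. The annotated exon begins further upstream, and the assembly covered 44.5% to 44.9% of it.

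Among other imprinted genes, 0 were called. Of 53 listed, 51 were quantified, and 31 were tested. Among the tested, 13 were higher and 18 lower in KO, with a median difference of -0.05 (log2). The 3 with the smallest p were Nap1l5, Cdkn1c and Osbpl5. Nap1l5, which encodes a nucleosome assembly protein, averaged 44.6 ± 1.79 FPKM in KO against 54.2 ± 2.14 FPKM in WT (SD, n = 3). It had an unadjusted limma p of 0.0288. Cdkn1c, the cell-cycle inhibitor p57, was at 49.9, 43.8 and 28.8 FPKM in KO and 59.8, 62.0 and 54.0 FPKM in WT, with an unadjusted limma p of 0.0429. The KO libraries of both lay below all WT libraries, and those of Osbpl5, a lipid transfer protein, lay above them. Of the 31 tested, 2 had all KO libraries below and 2 had all above, beside 3.03% and 2.03% of all tested genes. Osbpl5 averaged 6.19 ± 1.03 FPKM in KO against 4.72 ± 0.866 FPKM in WT (SD, n = 3), with an unadjusted limma p of 0.102. Their limma adjusted p was 0.9999 each.

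The partners of IGF and growth signalling were also not called: 0 of 31 tested genes, with 19 higher and 12 lower in KO. Igf2bp3, which binds Igf2 mRNA, was at 14.0 ± 0.312 FPKM in KO, below 18.2 ± 0.675 FPKM in WT (SD, n = 3). It had an unadjusted limma p of 0.00774. Shc1, an adaptor of receptor kinases, was at 10.9 ± 2.11 and 7.69 ± 0.487 FPKM, with an unadjusted limma p of 0.0276. Igfbp4, which binds IGFs outside the cell, was at 14.7 ± 5.45 and 8.06 ± 4.65 FPKM, with an unadjusted limma p of 0.113. Of 12 tested factors that write or keep imprints, 0 were called, with 4 higher and 8 lower in KO. Dnmt3a, a DNA methyltransferase, was at 6.89, 6.74 and 16.6 FPKM in KO and 16.1, 17.9 and 18.1 FPKM in WT, with an unadjusted limma p of 0.0440. KO replicate 3 lay within the WT range. Cbx3, a heterochromatin protein, was listed at 0 in KO replicates 2 and 3 and at 89.6 FPKM in KO replicate 1, beside 96.0, 75.3 and 102.5 FPKM in WT, with an unadjusted limma p of 0.0479. It was called when KO replicate 1 was left out. Ctcf, which binds the control region between H19 and Igf2, was at 28.8 ± 2.87 and 22.1 ± 6.13 FPKM, with an unadjusted limma p of 0.113.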

How the data were processed

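RNA-seq was measured in 6 libraries, 3 Gde3 KO and 3 Gde3 WT, grouped by their titles. Each deposited file is a transcript assembly in which the authors give an FPKM and its confidence bounds for every transcript. The submitters' processing notes name Cufflinks 2.2.1, Cuffdiff 2.2.1, TopHat2 2.1.1 and FastQC, and the build mm10. The role of each tool, the library strand and the read depth are not given in the sources used here.

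From these files, FPKM were added up at each exonic base of protein-coding and long noncoding genes of GENCODE vM21 (basic set) that no other gene shares, over transcripts of at least 300 nt on the gene's strand or without strand, and averaged over these bases (at least 200). An incomplete assembly therefore lowers the value. Genes that averaged at least 1 FPKM were tested with limma 3.58.1 in R 4.3.3 (trended eBayes, 2-sided) on log2(FPKM + 1), a scale that understates changes of low genes. P-values were adjusted by Benjamini-Hochberg over all 12040 tested genes, with a threshold of 0.05. The code was tested on simulated data. An exact permutation test of 3 against 3 libraries cannot go below 0.1 and was not used.

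Replicate numbers are shared between the groups' titles. Deviations from the group means correlated at 0.370, 0.199 and 0.294 between KO and WT libraries of the same number and at -0.278 to 0.0233 between others, so the numbers were taken to pair the libraries, as a hint from the data. The fit with this block was an alternative. Other alternatives changed the pseudocount, filter, scaling, way of summarising FPKM and libraries used. Named genes are the 10 members, the 3 genes with the smallest limma p in each of 3 lists (other imprinted genes, IGF and growth signalling partners, imprint factors), the 3 profiles most like each of the 2 most variable members, and Gdpd2. Mettl23, Rian and the OPC markers Pdgfra, Sox10 and Olig2 are named outside this rule, after their values were seen. The members and lists were chosen with earlier results of these data known. Summed FPKM of the endothelial and pericyte markers were 30.1 to 40.9 in KO and 28.4 to 40.5 in WT, and those of the Schwann cell and neural crest markers 78.9 to 87.5 and 72.2 to 123.4. Python 3.11.15 was used for sequences and figures. No protein sequence was used here.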

Additional observations from a re-analysis of the deposited data

How the results depend on the processing

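Of the 10 genes, 0 were called under any of the 18 alternatives, nor were any other imprinted genes of the list. The lowest adjusted p of a member was 0.809, with the replicate block. With the block, 0 genes in all were called, against 1 without it, and it changed no other call. The count of called genes was 0 with a pseudocount of 0.1 or 5, a minimum of 5 FPKM, FPKM summed over transcripts or all exonic bases, 2 with assembled bases only, 1 to 17 with 1 library left out, and 27 without both replicate 1 libraries. Of 176 member values under alternatives, 157 kept their direction and 19 turned. H19 was lower in KO in all 18, from -0.65 to -0.18 (log2). With assembled bases only, Dlk1 turned to -0.19, Peg10 to -0.073, Plagl1 to 0.042 and Zdbf2 to -0.13. With FPKM summed over transcripts, which moved the median of all genes to -0.25, Grb10 was at -0.25, Peg10 at -0.073 and Zdbf2 at -0.33, while H19 was at -0.20, Igf2 at -0.49 and Plagl1 at -0.92. With shared bases included, Igf2 was at 0.061. With 1 library left out, Dlk1 ranged from -0.35 to 0.53, Meg3 from -0.28 to 0.88, Ndn from -0.11 to 0.078, Peg10 from -0.092 to 0.46, Peg3 from -0.027 to 0.25 and Zdbf2 from -0.13 to 0.15. H19 (-0.65 to -0.18), Igf2 (-0.91 to -0.28), Plagl1 (-0.38 to -0.093) and Grb10 (0.022 to 0.17) kept their direction. The cause of these turns was not tested. Where 2 libraries remained in a group, the test pooled the spread of both groups. Meg3, Igf2, Plagl1 and Zdbf2 have no value at a minimum of 5 FPKM. Only for Peg3 and Grb10 did the assembly cover 97.5% or more of the unshared bases in every library. The main values of the other members rest on assemblies that covered less in some or all libraries. Without read counts no counting interval can be given.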

Other observations

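Peg10 transcripts also had gaps that no annotated transcript holds, downstream of the frameshift site. They took out 54, 90, 99 or 144 bases, each a multiple of 3, and each began with AT and ended with AC. The gap of 54 bases at chr6:4756414-4756467 (plus strand) was assembled in all 6 libraries, in transcripts that summed to 20.5, 27.8 and 21.9 FPKM in KO and 24.8, 29.4 and 8.40 FPKM in WT. Its sequence is shown because the same letters recur within it and at its edges: the 17 bases after its end are those at its start, and the 15 bases before its start are those at its end.

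Peg10 54-base gap: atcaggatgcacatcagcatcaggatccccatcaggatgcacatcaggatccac

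The gap of 90 bases was assembled in 5 libraries and absent from WT replicate 3. A 54-base gap placed at chr6:4756426-4756479 was assembled in the 3 KO libraries and in no WT library, at 8.44, 7.62 and 9.19 FPKM. Because of the 17 repeated bases, removing either 54-base stretch leaves the same sequence. By itself this gap is therefore another placement of the one assembled in all 6 libraries, and it does not set KO apart. These gaps lie in a stretch of repeated sequence, where the position of a gap is not unique, and whether they are missing from the RNA was not tested.

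In WT replicate 1 a fragment under 300 nt at the Grb10 locus was listed at 5118886 FPKM. The fragments of that length for the other members in that library were at most 41.2 FPKM. The fragment at Grb10 covered none of the exonic bases used for the gene's value. With transcripts of any length, Grb10 stayed at 36.3 FPKM in that library.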
